A study of Mus musculus with 16 samples.

Results

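The genes of the epidermal growth factor (EGF) family were followed in ear skin of ageing mice: 7 genes for ligands that bind the EGF receptor (Hbegf, Areg, Ereg, Btc, Tgfa, Egf and Epgn) and 3 for receptors (Egfr, Erbb2 and Erbb3). These 10 genes of the 45706 in the count table were chosen by name, with earlier results of the comparison between the ages known, so their values in that comparison are a description and carry no test. The ear was clipped in 8 male mice of the inbred strain C57BL/6J at 24 months and again, in the other ear, at 30 months, which gave 16 RNA-seq libraries in 8 within-animal pairs. By the labels the mice were 23.8 to 24.4 months old at the first clip and 29.0 to 30.1 months at the second. No treatment or genetic change separated the groups, and age and the ear that was clipped cannot be told apart. Each library held 22967222 to 36162431 reads counted on genes. The mice are named by their numbers: 13, 14, 21, 29, 43, 50, 64 and 75.

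The ligands are made as membrane-anchored precursors that proteases of the ADAM group cut to release the active factor. The freed ligand binds EGFR, or also ERBB4 in the case of HB-EGF, betacellulin and epiregulin, and the receptor pairs with itself or with another ERBB protein and switches on the RAS and MAP kinase cascade. ERBB2 has no known ligand and ERBB3 has little kinase activity, so both work as partners. In skin the family is known for its part in keratinocyte growth, in wound closure, in the hair cycle and in sebaceous glands.

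Of the 10 genes, 7 had a window in the RefSeq promoter table (GRCm38.p6), which runs from 250 bases before the start of a transcript to 50 after it. Hbegf, Ereg and Erbb3 were the others. The windows were searched on both strands for the AP-1 site TGANTCA, the cyclic AMP response element TGACGTCA, the CArG box of serum response factor and, added after the data were seen, the TATA letters TATAAA. These were present in 7.81%, 1.79%, 1.63% and 13.6% of all 32851 windows of this length. The Areg window held the cyclic AMP response element, which reads alike on both strands, 61 bases before the start and TATAAA 31 bases before it. The Epgn window held TATAAA 86 bases before its RefSeq start. In the GENCODE M21 annotation Epgn begins at 91027464 and Erbb2 at 98412470, both upstream of the RefSeq starts used here. Distances for Epgn therefore depend on the start chosen. The other windows of the family held none of these letters, which says nothing about the factors that bind there.

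The 250 bases before the RefSeq start are shown for Areg and Epgn, the ligand genes whose windows held a match. They are also shown for Tgfa and Erbb2, whose levels ranked the libraries alike (see the relations between libraries given after the levels). They lie at chr5:91139349-91139598 (+ strand), chr5:91027267-91027516 (+ strand), chr6:86194972-86195221 (+ strand) and chr11:98412234-98412483 (+ strand), are printed 5′ to 3′ on the strand of the gene, and carry the matches in capitals. The stretches of Epgn and Erbb2 run past the GENCODE starts of these genes.
Areg: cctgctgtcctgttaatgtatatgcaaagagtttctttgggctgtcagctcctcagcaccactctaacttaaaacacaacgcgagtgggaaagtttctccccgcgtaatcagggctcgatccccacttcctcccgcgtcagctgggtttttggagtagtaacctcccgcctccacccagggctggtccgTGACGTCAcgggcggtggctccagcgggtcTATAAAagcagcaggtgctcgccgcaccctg
Epgn: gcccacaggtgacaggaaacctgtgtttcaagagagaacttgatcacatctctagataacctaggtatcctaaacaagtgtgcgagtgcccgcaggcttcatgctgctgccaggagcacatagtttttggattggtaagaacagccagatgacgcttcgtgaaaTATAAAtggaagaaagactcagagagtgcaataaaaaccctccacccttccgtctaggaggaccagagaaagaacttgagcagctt
Tgfa: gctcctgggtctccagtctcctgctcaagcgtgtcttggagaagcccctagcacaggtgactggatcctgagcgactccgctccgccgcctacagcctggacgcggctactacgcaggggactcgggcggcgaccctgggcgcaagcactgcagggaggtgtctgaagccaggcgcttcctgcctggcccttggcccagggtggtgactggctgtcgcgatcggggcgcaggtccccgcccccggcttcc
Erbb2: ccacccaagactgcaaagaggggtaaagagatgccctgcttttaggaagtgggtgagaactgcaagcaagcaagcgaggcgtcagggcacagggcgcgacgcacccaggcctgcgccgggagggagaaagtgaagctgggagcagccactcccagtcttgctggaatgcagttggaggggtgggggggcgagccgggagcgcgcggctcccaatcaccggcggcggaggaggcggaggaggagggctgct
Of the windows searched, that of Tgfa was the richest in G and C, with 70.7% of its 300 bases, and the Epgn window the poorest with 47.3%.

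In the ear the family was present as abundant receptors and scarcer ligands. Levels of different genes were compared as reads per kilobase of exon and 1000000 reads (RPKM), since a long gene gathers more reads than a short one. Erbb2 and Erbb3 stood highest with median levels over the 16 libraries of 35.6 RPKM (24.7 to 39.5) and 32.6 RPKM (25.1 to 61.6). Egfr, the receptor that binds the ligands directly, had a median of 11.9 RPKM (10.2 to 14.9). By the median, the 3 receptors lay above every ligand.

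Among the ligands, Ereg (epiregulin) and Tgfa (transforming growth factor alpha) led with median levels of 7.89 RPKM (4.70 to 16.5) and 6.56 RPKM (4.34 to 12.8). Hbegf (heparin-binding EGF-like growth factor) followed at 1.76 RPKM and Btc (betacellulin) at 1.41 RPKM. Egf, the founding ligand of the family, stood at 0.667 RPKM and Epgn (epigen) at 0.541 RPKM. Areg (amphiregulin) was the lowest at 0.323 RPKM and rested on 2 to 25 reads per library. Ereg thus made up a median of 42.0% of the summed ligand level of a library, Tgfa 34.8%, Hbegf 8.96%, Btc 7.68%, Egf 3.61%, Epgn 2.79% and Areg 1.71%. With the length of the longest transcript the median share of Egf was 6.64% and that of Ereg 32.8%, below the 39.8% of Tgfa.

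**Figure D1:**
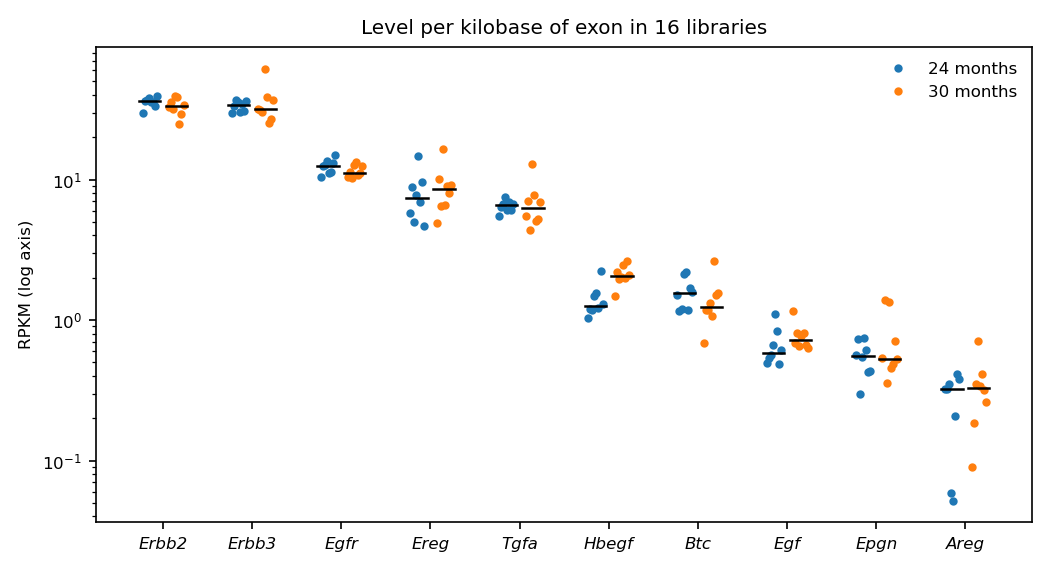
Level of each gene in RPKM (log axis) in the 8 libraries of each age. Each point is a library and each bar the median of an age. Erbb2 and Erbb3 lie near 35.6 and 32.6 RPKM, the ligands from 7.89 RPKM (Ereg) down to 0.323 RPKM (Areg).

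The order was tested between neighbours, with each mouse entering as the mean of its libraries on the log2 scale. Differences were tested by exchanging their signs in all patterns across the mice (exact permutation, two-sided), with adjustment over the 9 neighbouring pairs. Erbb3 lay above Egfr by 1.5 ± 0.17 (SD, log2, n = 8; exact test, adjusted p = 0.0176) and was higher in 8 of 8 mice. The same adjusted p, from the smallest p the design allows (0.00781), held for Egfr above Ereg (0.60 ± 0.35), Tgfa above Hbegf (1.93 ± 0.37) and Btc above Egf (1.01 ± 0.36). Epgn lay above Areg by 1.19 ± 0.81 (log2) in 7 of 8 mice, with an adjusted p of 0.0281 in the exact test. The other pairs did not pass in the exact test: Erbb2 over Erbb3 differed by 0.02 ± 0.14 (adjusted p = 0.648), Ereg over Tgfa by 0.28 ± 0.27 (0.0502), Hbegf over Btc by 0.25 ± 0.26 (0.0502) and Egf over Epgn by 0.26 ± 0.58 (0.290). With the length of the longest transcript in place of all exons, Tgfa stood above Ereg and Egf above Btc, with mean differences of -0.24 (Ereg over Tgfa) and -0.05 (Btc over Egf) on the log2 scale. The order of those neighbours therefore rests on the length used, and Hbegf over Btc (0.83) and Egf over Epgn (1.45) then passed. Epgn over Areg did not pass without mouse 14, 43 or 64 (1.07 to 1.27). Some pairs passed only when a mouse was left out. These were Ereg over Tgfa without mouse 13 or 75 (0.33 each), Hbegf over Btc without mouse 50 (0.31) and Erbb2 over Erbb3 without mouse 29 (0.07). The neighbours were set by ranking the same levels that were then tested.

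A sample of the ear holds skin from both faces of the pinna, cartilage and a little muscle. The marker lists showed keratinocyte, sebaceous gland, cartilage and muscle messages in every library, with no listed gene of the table at 0 throughout. No marker gene passed the adjusted edgeR test between the ages, as none of the 21526 genes tested did. At an unadjusted p under 0.05 that test called 12% of all genes. Among the markers tested it called 6 of 11 cartilage genes, 5 of 8 endothelial genes and 4 of 11 differentiated keratinocyte genes. Each other list had 0 or 1 such genes. The sums did not stay level in each mouse. The summed fat cell markers were higher at 30 months in 7 of 8 mice. The skeletal muscle, endothelial, macrophage and neutrophil sums were higher in 6 of 8. The cartilage, differentiated keratinocyte, fibroblast and T cell sums were higher in 2 of 8 and the pigment cell sum in 1 of 8. The sums of the other lists were higher in 3 to 5 of 8. In bulk tissue fewer cells of a type and less RNA per cell cannot be told apart. The libraries of mice 50 and 29 at 30 months stood apart most, with median correlations to the other libraries of 0.968 and 0.969 against 0.978 to 0.988 for the rest.

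Between 24 and 30 months, Hbegf was the gene of the family with a change of the same sign in every mouse. Its level, in reads per 1000000 after TMM scaling (CPM), ran from 5.05 to 10.9 CPM at 24 months (median 6.11) and from 7.22 to 12.7 CPM at 30 months (median 9.94), from 154 to 327 reads a library. It was higher at 30 months in 8 of 8 mice, with a mean of 6.80 ± 1.84 CPM (SD, n = 8) before and 10.2 ± 1.67 CPM after. The smallest step was from 10.9 to 12.7 CPM in mouse 64 and the largest, on the log2 scale, from 5.78 to 10.5 CPM in mouse 14. The age groups overlapped, with 6 of the 8 libraries at 24 months below all at 30 months and 2 of the 8 at 30 months above all at 24 months. The fitted log2 change was 0.60 with an SE of 0.09, or 1.52-fold, and it stayed between 0.56 and 0.66 when any mouse was left out.

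**Figure D2:**
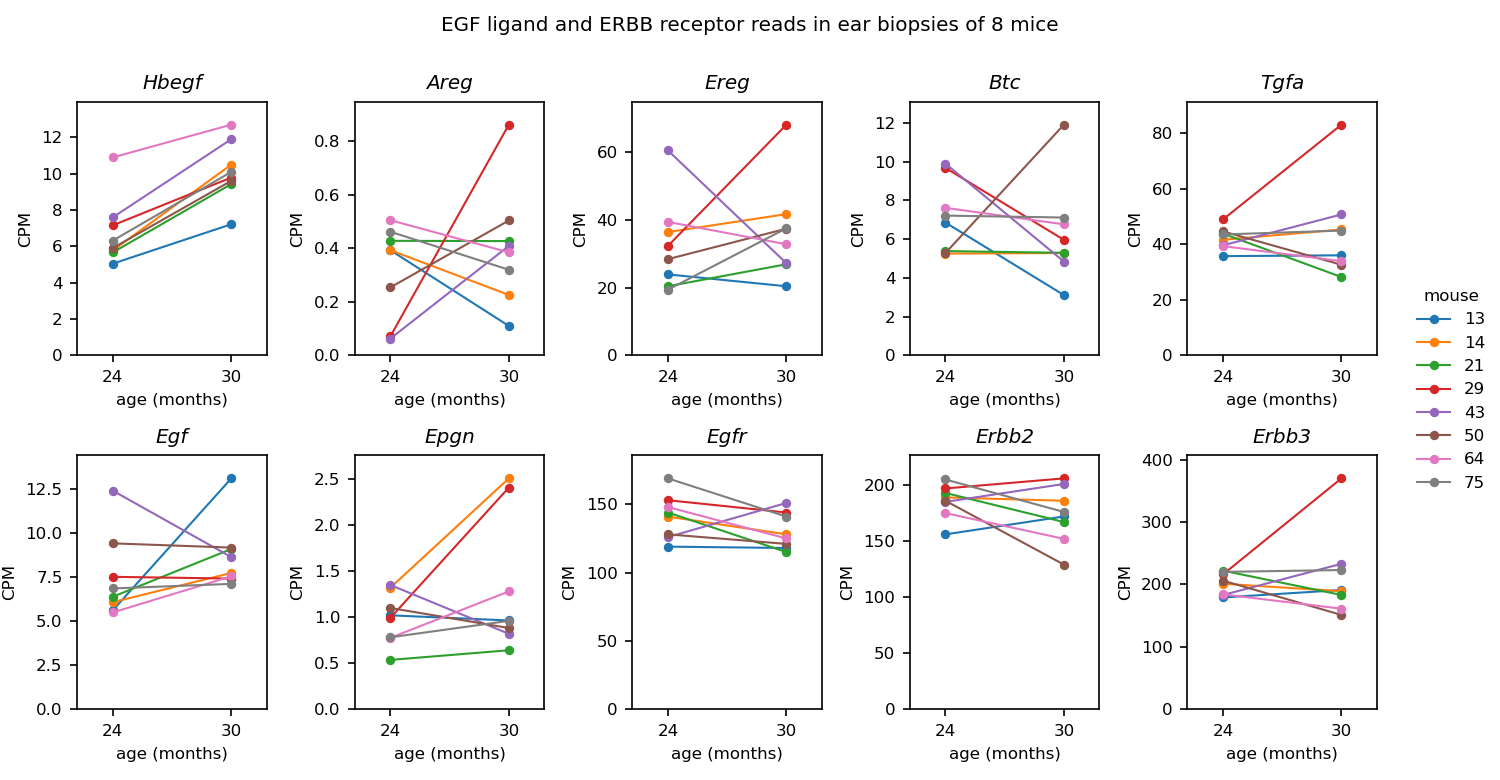
CPM of each of the 10 genes at 24 and 30 months, with a line for each of the 8 mice and each axis starting at 0. The Hbegf lines all climb, from 5.05 to 10.9 CPM at 24 months to 7.22 to 12.7 CPM at 30 months. Every other gene has lines that climb and lines that fall.

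The other ligands moved both ways. Areg had a fitted log2 change of 0.31 with an SE of 0.50 and was higher at 30 months in 3 of 8 mice. Its levels ran from 0.0628 to 0.505 CPM at 24 months (median 0.393) and from 0.110 to 0.862 CPM at 30 months (median 0.397). Mouse 29 went from 2 to 25 reads and mouse 13 from 12 to 4, and without mouse 29 the fitted change was -0.05, so its sign rests on that mouse.

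Ereg and Epgn, which lie near Areg on chromosome 5, were higher in 5 of 8 mice each. Ereg ran from 19.4 to 60.5 CPM at 24 months (median 30.3) and from 20.4 to 68.1 CPM at 30 months (median 35.1), with a fitted log2 change of 0.18 (SE 0.22) that came to 0.05 when mouse 29 was left out, to 0.07 for mouse 75 and to 0.37 for mouse 43. In mouse 43 it went from 60.5 to 27.2 CPM and in mouse 29 from 32.3 to 68.1 CPM. Epgn ran from 0.535 to 1.35 CPM (median 1.0) and then from 0.640 to 2.51 CPM (median 0.962), with a fitted change of 0.31 (SE 0.23) on 15 to 78 reads, which was 0.16 without mouse 29 and 0.47 without mouse 43. Its 2 high libraries at 30 months, of mice 14 and 29, lay above all libraries at 24 months.

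Btc was lower at 30 months in 6 of 8 mice. It ran from 5.25 to 9.89 CPM at 24 months (median 7.03) and from 3.11 to 11.9 CPM at 30 months (median 5.63), with a fitted log2 change of -0.24 (SE 0.23). Mouse 50 rose from 5.28 to 11.9 CPM. Mice 14, 21 and 75 were near level, with log2 ratios of 0.01, -0.03 and -0.02. Without mouse 50 the fitted change was -0.44, and without mouse 13 or 43 it was -0.11 or -0.12.

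Tgfa showed no common direction, with a fitted log2 change of 0.00 (SE 0.14) and 5 of 8 mice higher. At 24 months it was narrow, from 35.7 to 48.9 CPM (median 42.6), and at 30 months it spread from 28.2 to 83.0 CPM (median 40.5). The highest library was that of mouse 29 and the lowest that of mouse 21. Without mouse 29 the fitted change was -0.10 and without mouse 21 it was 0.09.

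Egf ran from 5.49 to 12.4 CPM at 24 months (median 6.62) and from 7.11 to 13.1 CPM at 30 months (median 8.18). It was higher in 5 of 8 mice, with a fitted log2 change of 0.25 (SE 0.17) that was 0.11 without mouse 13 and 0.37 without mouse 43. Mouse 13 went from 5.61 to 13.1 CPM and mouse 43 from 12.4 to 8.63 CPM. The groups overlapped, though 5 of the 8 libraries at 24 months lay below all at 30 months.

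The receptors had fitted log2 changes of -0.11 to 0.03. Egfr was lower at 30 months in 7 of 8 mice, from 119 to 169 CPM at 24 months (median 143) to 115 to 151 CPM at 30 months (median 127). Its fitted log2 change was -0.11 (SE 0.07), and mouse 43 was the exception, from 126 to 151 CPM. Erbb2 ran from 156 to 205 CPM (median 188) and then from 129 to 206 CPM (median 174), lower in 5 of 8 mice, with a fitted change of -0.11 (SE 0.08) that was -0.05 without mouse 50. Erbb3 ran from 179 to 222 CPM (median 204) and then from 151 to 370 CPM (median 190), with 4 mice higher and 4 lower and a fitted change of 0.03 (SE 0.12). The value of 370 CPM was that of mouse 29, and without this mouse the fitted change was -0.07.

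Of the 10 genes, 7 had a fitted log2 change above 0 and 3 below it, with a median of 0.10 for the 10, 0.25 for the 7 ligands and 0.01 for all 21526 genes tested. The paired edgeR quasi-likelihood test called 0 of the 10 at an adjusted p under 0.05, and 0% of all genes tested. At an unadjusted p under 0.05 it called 1 of them, Hbegf, beside 12% of all genes. DESeq2 called 1, again Hbegf, beside 1.17% of 19439 genes with an adjusted p. A higher level in all 8 mice was found for 1 of the 10 and for 1.08% of all genes, and groups that did not overlap for 0 of the 10 and for 0.195%. Since the genes were selected on this comparison, nothing is read from these counts.

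The share of Hbegf in the summed ligand level was 7.50% ± 1.53 (SD, n = 8) at 24 months and 10.6% ± 2.53 at 30 months, higher in 7 of 8 mice. That of Btc was 8.43% ± 1.67 and 6.87% ± 2.87, higher in 1 of 8. The shares of Ereg (40.6% and 41.3%) and Tgfa (35.5% and 32.3%) were higher in 4 of 8 and 2 of 8 mice. The summed level itself was 18.8 ± 3.79 RPKM at 24 months and 21 ± 6.42 RPKM at 30 months.

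Whether a mouse kept its place among the mice was asked for each gene by correlating the levels at the ages over the 8 mice, testing against every order of the mice (exact permutation, two-sided) and adjusting over the 10 genes. Hbegf gave r = 0.83 (exact permutation p = 0.0184, adjusted p = 0.184) and rho = 0.83 (p = 0.0154, adjusted p = 0.154). Without mice 43 and 64, the farthest from the median at 24 months, r was 0.66 (exact permutation p = 0.212). No gene passed the adjusted threshold, and r ran from -0.58 for Areg to 0.44 for Tgfa among the others.

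The libraries also differed from each other at one age. After each age mean was removed, 205 relations were computed over the 16 libraries: 45 between pairs of the genes and 160 between a gene and the mean log2 level of a marker list. This comparison was chosen after the data were seen, the libraries of a mouse were treated as separate, and p-values come from 100000 permutations within an age with adjustment over the 205. Of these, 4 passed by both Pearson's r and Spearman's rho.

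Egf followed the skeletal muscle markers, with r = 0.87 (permutation p = 4e-05, adjusted p = 0.00820) and rho = 0.80 (permutation p = 0.000610, adjusted p = 0.0202). The 12 markers, contractile genes such as Acta1 and Myh4, summed to 1040 to 12815 CPM at 24 months and 1482 to 9962 CPM at 30 months. The library with the most, mouse 43 at 24 months, had 12.4 CPM of Egf, and the one with the next, mouse 13 at 30 months, had 13.1 CPM. Without these libraries r was 0.76, and within an age it was 0.98 at 24 months and 0.65 at 30 months. With the log2 of the summed markers r was again 0.87 (permutation adjusted p = 0.00820), but rho was 0.77 and missed the threshold (permutation adjusted p = 0.0512). The muscle markers were higher at 30 months in 6 of 8 mice, with a median log2 change of 0.84 over 12 genes, and their part in the values of Egf at the 2 ages was not tested.

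Tgfa and Erbb3 varied together, with r = 0.92 (permutation p = 0.000310, adjusted p = 0.0246) and rho = 0.85 (permutation p = 0.000270, adjusted p = 0.0184). Mouse 29 at 30 months was the highest of the 16 libraries for both. Without it and the library of mouse 21 at 30 months r was 0.88, and within an age it was 0.86 and 0.92. Both genes followed the 10 sebaceous gland markers, Tgfa with r = 0.77 (permutation p = 0.000480, adjusted p = 0.0246) and rho = 0.83 (permutation p = 0.000650, adjusted p = 0.0202) and Erbb3 with r = 0.76 (permutation p = 0.000470, adjusted p = 0.0246) and rho = 0.80 (permutation p = 0.000950, adjusted p = 0.0241). Without the libraries farthest in the markers, those of mouse 43 at 24 months and mouse 50 at 30 months, r was 0.91 and 0.81. Within an age the relation was looser at 24 months, with r = 0.42 for Tgfa and 0.58 for Erbb3, than at 30 months, with 0.94 and 0.89, a difference that was not tested. The mean log2 level weights every marker alike, and on it the library of mouse 29 at 30 months was the highest, while its summed markers, at 5237 CPM, lay below the median of 5811 CPM at that age. With the log2 of the sum in place of the mean, added after the data were seen, r was 0.25 for Tgfa (permutation adjusted p = 0.747) and 0.26 for Erbb3 (permutation adjusted p = 0.736). These relations therefore rest on how the list was summarised. The sums ran from 3569 to 7963 CPM at 24 months and from 4727 to 9142 CPM at 30 months.

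A further 8 relations passed by rho alone. Those of Erbb2 had the highest rho: with Erbb3 it was 0.91 (permutation adjusted p = 0.00410) and r 0.80 (0.0697), and with Tgfa rho was 0.89 (permutation adjusted p = 0.00410) and r 0.74 (0.0936). Egfr did so with Erbb3 (rho 0.76), Erbb2 (0.76) and Tgfa (0.71), and the sebaceous markers with Erbb2 (0.76). The others were the hair follicle markers with Epgn (rho -0.80) and the neutrophil markers with Areg (0.80). The relations that passed by both measures depend on single mice. Of the 4, 3 passed again without mouse 13, 2 without mouse 14 or 21, 1 without mouse 43, 64 or 75 and 0 without mouse 29 or 50. Another relation passed without mouse 29 (Erbb2 with Erbb3), mouse 50 (Tgfa with Erbb2) and mouse 64 (the differentiated keratinocyte markers with Hbegf). In those repeats r stayed between 0.85 and 0.89 for Egf with the muscle markers, between 0.76 and 0.96 for Tgfa with Erbb3, between 0.66 and 0.90 for Tgfa with the sebaceous markers and between 0.67 and 0.86 for Erbb3 with them.

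**Figure D3:**
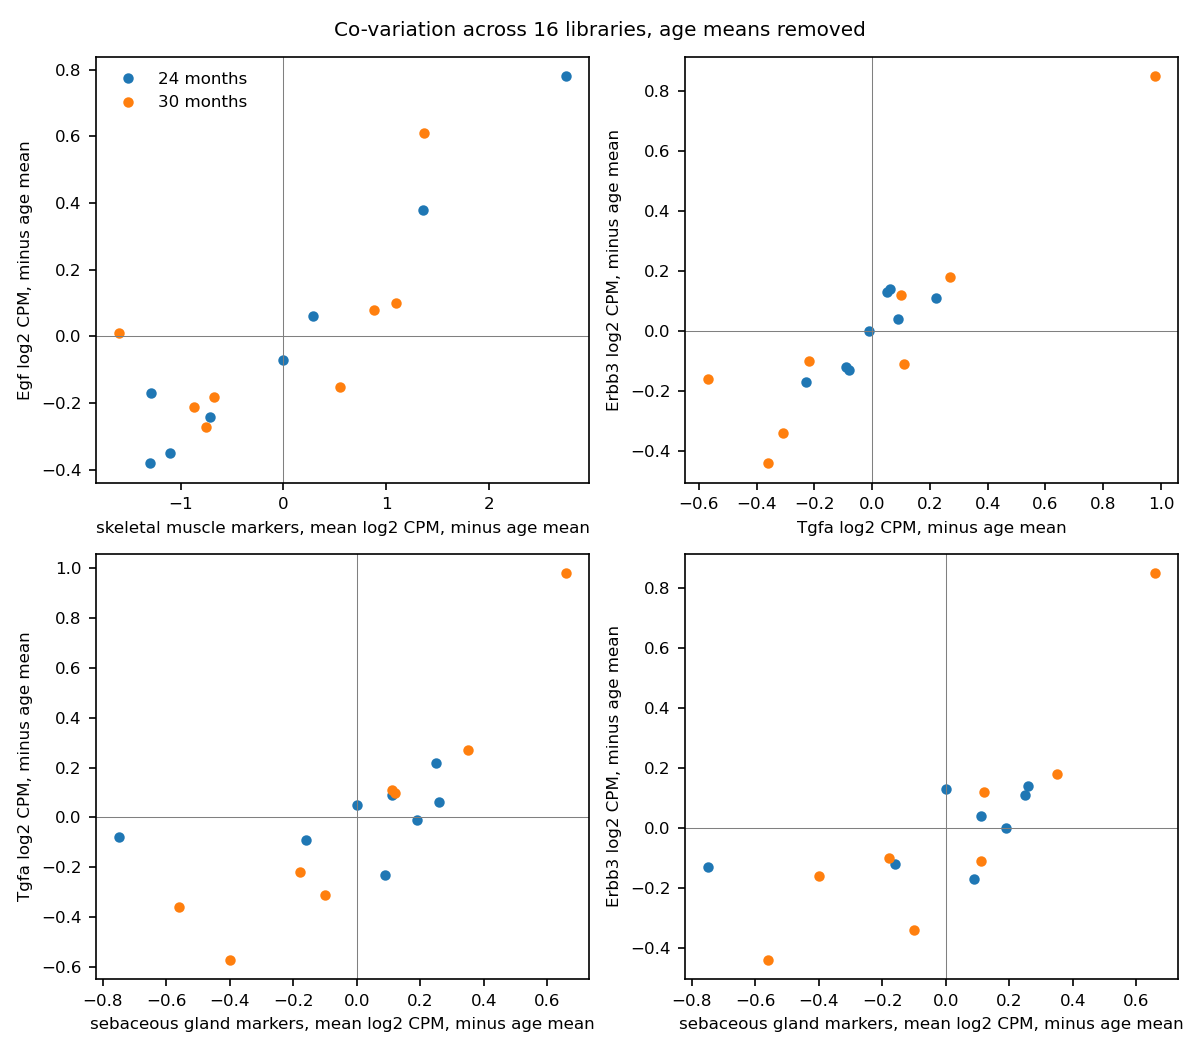
Log2 CPM of a gene against that of another gene or the mean of a marker list in 16 libraries, after the mean of each age was subtracted. Points are libraries, colored by age. Egf climbs with the muscle markers (r = 0.87), Tgfa with Erbb3 (r = 0.92), and Tgfa and Erbb3 with the sebaceous gland markers (r = 0.77 and 0.76).

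The genes most like each member over the 16 libraries, again with age means removed, are given as a description. They are the highest r among the genes that passed the filter, so high values are partly built in by the choice, and no test was made. For Hbegf these were Fosl1 (r = 0.88), which encodes the AP-1 subunit FRA1, Skint1 (0.80), a gene of keratinocytes, and 1110003F10Rik (0.80). The library of mouse 64 at 24 months was the highest of its age for both Hbegf (10.9 CPM) and Fosl1 (5.46 CPM, others 1.87 to 3.39). The r without this library was not computed. For Tgfa they were Ddi2 (0.98), Krt80 (0.97) and Prdm1 (0.95), and for Erbb3 Unc5b (0.98), Sun2 (0.97) and Calcoco1 (0.96). For Erbb2 they included St14 (0.96), which encodes the epithelial protease matriptase, and Ppp1r13l (0.94). For Egf they were Rps6ka2 (0.95), Slc25a12 (0.95) and Ppp1r12b (0.94). For Egfr they were Adgrl2 (0.92), Spty2d1 (0.89) and Pabpc1 (0.89).

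For the remaining ligands the genes most alike were as follows. For Ereg they were Sdcbp2 (0.86), Cdc34b (0.85) and Gm7690 (0.82), for Btc Gm16332 (0.85), Tmem229b-ps (0.84) and Atp11b (0.84), for Epgn Mrpl9 (0.90), Decr1 (0.89) and Serpina12 (0.89), and for Areg Slc25a24 (0.90), Pramef12 (0.86) and 4732487G21Rik (0.83).

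Around these genes, 85 further genes of the pathway were listed by role, and 84 were tested. The paired edgeR test called 0 of them at an adjusted p under 0.05, and at an unadjusted p under 0.05 it had 10 higher and 2 lower, beside 12% of all genes in either direction. The members of the list of transcriptional targets, immediate-early and feedback genes that the MAP kinase cascade switches on, were higher most often: 18 of 20 had a fitted log2 change above 0, with a median of 0.32 beside 0.01 for all genes, and 9 of 20 had an unadjusted p under 0.05, all higher, beside 4.86% of all genes. DESeq2 called 7 of the 20, all higher, beside 0.396% of all genes. The lists were drawn up with earlier results of these libraries known, in which early genes were already higher.

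The targets with the smallest p were Dusp1, a phosphatase that switches off MAP kinases, at 46.6 ± 12.6 CPM and 93.8 ± 53.9 CPM (SD, n = 8; log2 change 0.91, SE 0.14), Junb, an AP-1 subunit (0.50, SE 0.08), and Ier3 (0.46, SE 0.08). Each was higher in 8 of 8 mice, with an adjusted p of 0.141 in edgeR, and the adjusted p in DESeq2 was 1.94e-06, 3.56e-05 and 0.000164. Egr1, a zinc finger factor of the early response, followed with 0.85 (SE 0.16; edgeR adjusted p = 0.156). Fos, the partner of the JUN proteins, had the widest change, 1.56 (SE 0.35; edgeR adjusted p = 0.222), from 7.05 to 20.2 CPM at 24 months to 11.9 to 289 CPM at 30 months. Ier2 (0.40, SE 0.10) and Myc (0.37, SE 0.10) both had an edgeR adjusted p of 0.240, and Fosl1 was at 0.26 (SE 0.13; edgeR adjusted p = 0.455) and higher in 7 of 8 mice. The library of mouse 14 at 30 months stood above the others for several of these genes, with 222 CPM of Dusp1 against 60.4 to 107, 289 CPM of Fos against 11.9 to 38.4 and 262 CPM of Egr1 against 57.4 to 172. This mouse was also the highest at 24 months for Dusp1 (72.5 CPM), Fos (20.2 CPM) and Egr1 (89.1 CPM). Without it, a repeat added after the data were seen, 9 of the 20 targets again had an unadjusted p under 0.05, all higher, and the changes were 0.81 for Dusp1, 1.25 for Fos and 0.75 for Egr1.

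**Figure D4:**
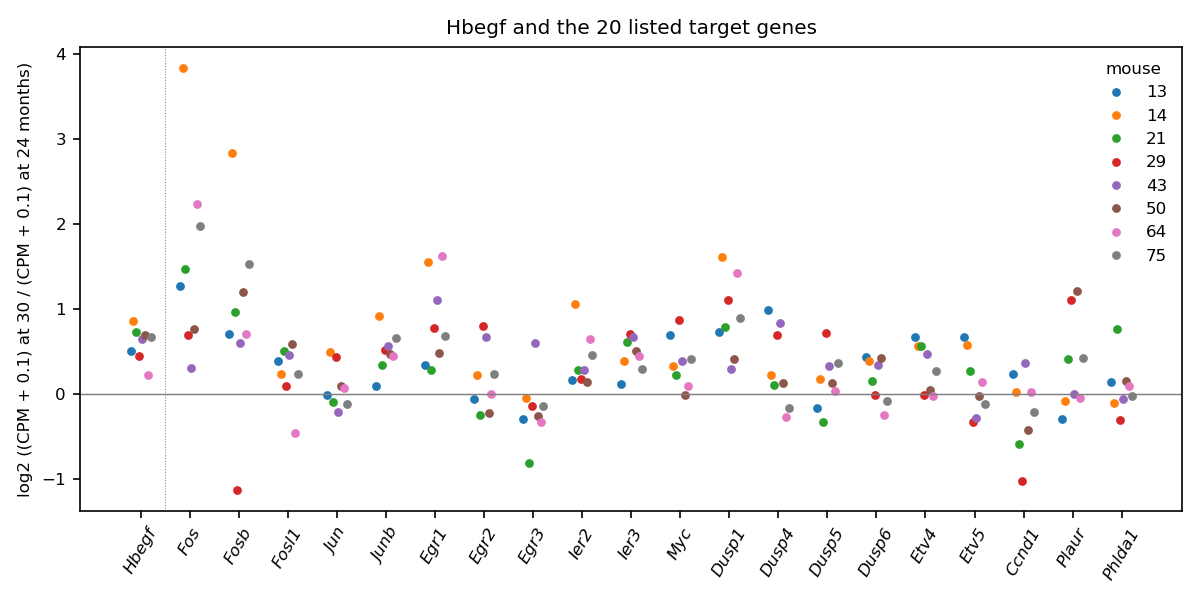
Log2 ratio of the level at 30 months to that at 24 months (CPM plus 0.1) in each of the 8 mice for Hbegf, left of the dotted line, and the 20 listed target genes. Hbegf, Fos, Junb, Egr1, Ier2, Ier3 and Dusp1 lie above 0 in 8 of 8 mice.

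The other lists stayed near the median of all genes. Of the shedding proteases and their partners, 6 of 10 had a fitted change above 0 with a median of 0.06, and Adam17, a sheddase of several of the ligands, was lower in 7 of 8 mice (-0.14, SE 0.06; edgeR adjusted p = 0.393). Of the adaptors and kinases, 13 of 29 were above 0 with a median of -0.03. Of the feedback inhibitors, 11 of 21 were above 0 with a median of 0.05. Socs3, an inhibitor of cytokine signals, was higher in 8 of 8 mice (0.52, SE 0.14, edgeR adjusted p = 0.255) and was called by DESeq2 (adjusted p = 0.0365). In the same list Cbl was higher in 1 of 8 mice (-0.42, SE 0.13, edgeR adjusted p = 0.288). Cbl and Adam17 were the 2 lower pathway genes with an unadjusted edgeR p under 0.05.

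The neuregulins are ligands of ERBB4 and, for some of them, also of ERBB3. Nrg1 was higher in 7 of 8 mice by CPM (0.82, SE 0.37, edgeR adjusted p = 0.421). It ran from 0.170 to 0.606 CPM at 24 months and from 0.275 to 1.86 CPM at 30 months, on 6 to 54 reads a library. Mouse 75 had 10 reads at both ages and mouse 43 went from 16 to 15. The largest steps were in mice 21 (8 to 24 reads), 29 (10 to 54) and 50 (6 to 24). Nrg2 (-0.09, SE 0.17) and Nrg4 (-0.30, SE 0.20) had fitted changes below 0, and Nrg3 had too few reads to be tested. Erbb4, the remaining receptor, was scarce at 0.414 to 3.64 CPM and had a fitted change of -0.02 (SE 0.43).

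By position, 4 of the ligand genes are neighbours in mouse GRCm38, within 376 kb of chromosome 5: Epgn (91027464 to 91035215), Ereg (91074622 to 91093646) and Areg (91139599 to 91148432) on the forward strand and Btc (91357261 to 91402994) on the reverse strand. The gaps between them are 39.4, 46.0 and 209 kb. Hbegf lies on chromosome 18 (36504927 to 36515805, reverse strand), Tgfa on chromosome 6 (86195223 to 86275719, forward), Egf on chromosome 3 (129677565 to 129755316, reverse), Egfr and Erbb2 on chromosome 11 (16752203 to 16918158 and 98412470 to 98437716, both forward) and Erbb3 on chromosome 10 (128567523 to 128589652, reverse). All 10 are annotated as protein-coding. Exons of Ereg, Tgfa, Egf and Erbb2 overlap annotated genes on the opposite strand (Gm19610, Gm43917, 6330410L21Rik with Gm42697, and Mien1). The sources used here do not state the strand setting or how reads over such stretches were assigned. These reads may have been counted for the member, for its partner or for neither.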

How the data were processed

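Reads were counted per gene in 16 libraries. The deposited values are raw read counts made by the authors, without normalization. The submitters' processing notes name CASAVA 1.8.4, TopHat2 2.1.0, HTSeq 0.6.1p1 and the build mm10; the strand setting is not given in the sources used here. Of the table, 5 summary lines (18.7% to 21.1% of the reads) name no gene and were left out, and 0 columns belonged to other samples. Reads carry no molecular identifiers, so copies made by PCR are counted too.

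The age comparison was fitted with edgeR 4.0.16 under R 4.3.3 (TMM, filterByExpr, quasi-likelihood test, a term for each mouse, Benjamini-Hochberg adjustment, threshold 0.05) over 21526 genes, and all 10 members passed the filter. The pairing comes from the study's design, with both clips from the same animal; same-mouse deviations from the age means had a median correlation of -0.03, against -0.02 between mice. The mice are the replicates. Exact and permutation tests were two-sided, in Python 3.11.15 with scipy 1.17.1, on log2 CPM with a pseudocount of 0.1 or log2 RPKM with 0.01 (union exon length, GENCODE M21). The tests were checked on data with known answers. Alternatives were DESeq2 1.42.0, its size factors, no filter, no mouse term, another length or pseudocount, and each mouse left out.

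The members and lists were chosen with earlier results of these data known. Named beside the members were Erbb4, the neuregulins, the 8 other pathway genes with the smallest edgeR p and the 3 genes most like each member, of which 1 is not reported here; Fosl1 with its change, Adam17, the other gene names and the relations over libraries were chosen after values were seen. Protein features were not analysed here.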

Additional observations from a re-analysis of the deposited data

Results flagged for a closer look

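For each of the 10 genes, the level at either age and the change within a mouse were examined, 30 groups of 8 values in all, for a highest or lowest value far from the next. By Dixon's criterion 6 groups held one, where chance gives about 1.5 for independent groups of normally distributed values. These groups are not independent, since the changes come from the same levels and 3 of the 6 lie in the same library. The excess was not tested. Hbegf in mouse 64 at 24 months had 10.9 CPM, against 5.05 to 7.60 CPM in the other mice. At 30 months mouse 29 stood apart for 3 genes, with 68.1 CPM of Ereg (others 20.4 to 41.7), 83.0 CPM of Tgfa (others 28.2 to 50.7) and 370 CPM of Erbb3 (others 151 to 233). Btc in mouse 50 at 30 months had 11.9 CPM (others 3.11 to 7.11), and Egf in mouse 13 at 30 months had 13.1 CPM (others 7.11 to 9.17). The libraries of mice 29 and 50 at 30 months were also those least like the rest, with median correlations of 0.969 and 0.968.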

How the results depend on the processing

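The edgeR count of 0 genes at an adjusted p under 0.05 was 0 with DESeq2 size factors, without a filter and without any mouse, 3 with no replicate block and 228 with the DESeq2 Wald test, and the cause of the difference was not tested. The further pathway genes called were 0 in edgeR, also without the pairing of the mice, and 8 with the DESeq2 Wald test. The count at an unadjusted p under 0.05, 2593 genes (1047 higher, 1546 lower), ran from 1860 to 3786 without a mouse; without mouse 43 it was 1930 higher and 1856 lower. The number of relations across libraries that passed, 4 with all mice, was 1 to 3 without a mouse, of which 0 to 3 were among those 4. It was 1 (Tgfa with Erbb3) with the log2 of the summed markers. Both repeats were chosen after seeing the data. With the longest transcript as length, Ereg over Tgfa went to -0.24 and Btc over Egf to -0.05 (log2). The fitted change kept its sign in every alternative for Hbegf, Ereg, Btc, Egf, Epgn, Egfr and Erbb2, and not for Areg, Tgfa and Erbb3. Areg rested on 2 to 25 reads a library.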
